A study of Homo sapiens with 12 samples.

Results

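The interleukin-12 (IL-12) family genes IL12A, EBI3, IL23A and IL27RA were followed in human breast cancer cells whose BHLHE40 transcript was targeted by a short hairpin RNA. The members were the 4 named genes, and all probes that the platform annotation gives to them were taken: 1 probe for each gene, 4 of the 47302 probes on the array, out of 20040 annotated genes. The lines were sublines of MDA-MB-231, an established cell line from a triple-negative breast cancer, selected for metastasis to the lung (LM). BHLHE40-KD cells carried the hairpin against BHLHE40, a basic helix-loop-helix transcription factor induced by hypoxia, and LM-EV cells carried the control vector; both were stable lines under puromycin, and there was 1 line of each kind. Each line was sampled untreated (0 h) and after 6 h and 48 h of hypoxia at 1% O2. The sample labels combine this with low glucose, whereas the study's methods name hypoxia alone for these arrays. Low glucose is given as 1 mg/ml in the study's culture methods and as 1 mM in its methods for a separate array experiment. The 6 groups had 2 arrays each, described as biological repeats, and each of 2 slides held every group once. A slide is called an experiment below. The labels do not tie the slides to the study's 2 independent experiments, so this pairing is an assumption. Because each genotype is represented by 1 line, the arrays compare those lines, and an effect of the hairpin cannot be told apart from other differences between them.

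The members are parts of secreted cytokines made of an alpha and a beta chain, and of a receptor for them. IL12A pairs with IL12B to form IL-12, which drives T helper 1 responses, and with EBI3 to form IL-35, which has been tied to regulatory lymphocytes. EBI3 also pairs with the IL27 chain to form IL-27, while IL23A pairs with IL12B to form IL-23, a cytokine that sustains T helper 17 cells. IL27RA is the specific chain of the IL-27 receptor and signals with IL6ST (gp130) through JAK and STAT proteins. The chains are best known from dendritic cells and macrophages, and IL27RA from lymphocytes. IL12A and EBI3 belong to a cytokine panel that the study chose on these same samples. Its condition was a rise of at least 1.5-fold with hypoxia, at 6 h or 48 h, that the knockdown diminished. Results for these genes are thus not independent evidence, and whether they meet the fold condition here is given below. IL23A and IL27RA complete the family.

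The promoter windows of the 3 members with clear signals are shown because the targeted gene encodes a DNA-binding factor, which is known to bind the E-box CACGTG, and because hypoxia and inflammatory signals act on promoters through short motifs. Each window runs from 250 bases before to 50 bases after the RefSeq start (GRCh38.p14, plus strand), and matches to any of the motifs searched stand in capitals.
IL27RA, chr19:14031512-14031811: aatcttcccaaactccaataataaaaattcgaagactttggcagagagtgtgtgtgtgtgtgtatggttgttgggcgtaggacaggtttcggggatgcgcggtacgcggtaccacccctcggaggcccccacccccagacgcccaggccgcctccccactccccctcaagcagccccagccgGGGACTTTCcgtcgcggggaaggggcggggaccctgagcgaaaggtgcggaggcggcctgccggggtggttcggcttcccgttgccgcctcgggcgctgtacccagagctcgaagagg
EBI3, chr19:4229273-4229572: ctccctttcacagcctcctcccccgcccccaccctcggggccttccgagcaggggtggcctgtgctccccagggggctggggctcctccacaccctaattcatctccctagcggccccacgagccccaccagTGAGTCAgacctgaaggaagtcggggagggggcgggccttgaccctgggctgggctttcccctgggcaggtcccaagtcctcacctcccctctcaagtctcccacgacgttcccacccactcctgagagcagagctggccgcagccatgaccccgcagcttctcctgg
IL12A, chr3:159988585-159988884: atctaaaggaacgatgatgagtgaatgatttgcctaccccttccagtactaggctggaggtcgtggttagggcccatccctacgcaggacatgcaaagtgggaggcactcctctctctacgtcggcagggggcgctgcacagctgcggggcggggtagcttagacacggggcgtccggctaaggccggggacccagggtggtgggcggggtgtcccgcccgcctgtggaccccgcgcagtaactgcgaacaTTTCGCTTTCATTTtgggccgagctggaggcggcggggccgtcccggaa
The motifs, chosen after the windows had been read, were CACGTG, the hypoxia core (ACGTG or GCGTG), the AP-1 motif TGANTCA, the kappaB motif GGGACTTTC and the interferon regulatory factor motif AANNGAAA, each on both strands. Neither CACGTG, held by 7.26% of 35116 windows of this length, nor the hypoxia core, held by 48.4%, was found in the windows of the 4 members. The IL27RA window held GGGACTTTC 68 bases before the start, a motif present in 0.387% of windows. That share belongs to a form chosen after the windows had been read. Other forms of the kappaB motif were not searched, so the other members cannot be said to lack one. TGAGTCA, an AP-1 match held in some form by 7.71% of windows, lay 118 bases before the start of EBI3, and the same letters lay 77 bases before the start of IL23A, whose window is on chromosome 12. The IL12A window held the interferon regulatory factor motif from bases 2 (TTTCGCTT) and 8 (TTTCATTT) of the transcript, matches that overlap each other, and that of IL23A held it 224 bases before the start, while 22.8% of all windows hold it. These are matches of letters and not sites of binding.

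Signals are the authors' normalized intensities on a linear scale. A probe counts as detected on an array where its detection p-value, which compares it with the negative control beads, was under 0.05; the dimmest detected probes lay at 42.2 to 51.8. IL12A and IL27RA were detected on all 12 arrays, EBI3 on 11 and IL23A on 5, and all 4 members passed the filter that asked for detection on both arrays of at least 1 group, as did 12336 genes. The deposited bead signals of 5 arrays of experiment 2 did not match their normalized signals, whereas the detection p-values followed the normalized signals on all 12 arrays (rank correlation -0.9898 to -0.983), and results rest on those. Levels of different probes are not comparable, so each gene is compared only with itself. Differences are given as log2 of normalized signals with values under 16 set to 16, from limma with the slide as a block, with p-values adjusted by Benjamini-Hochberg over 22207 probes.

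**Figure D1:**
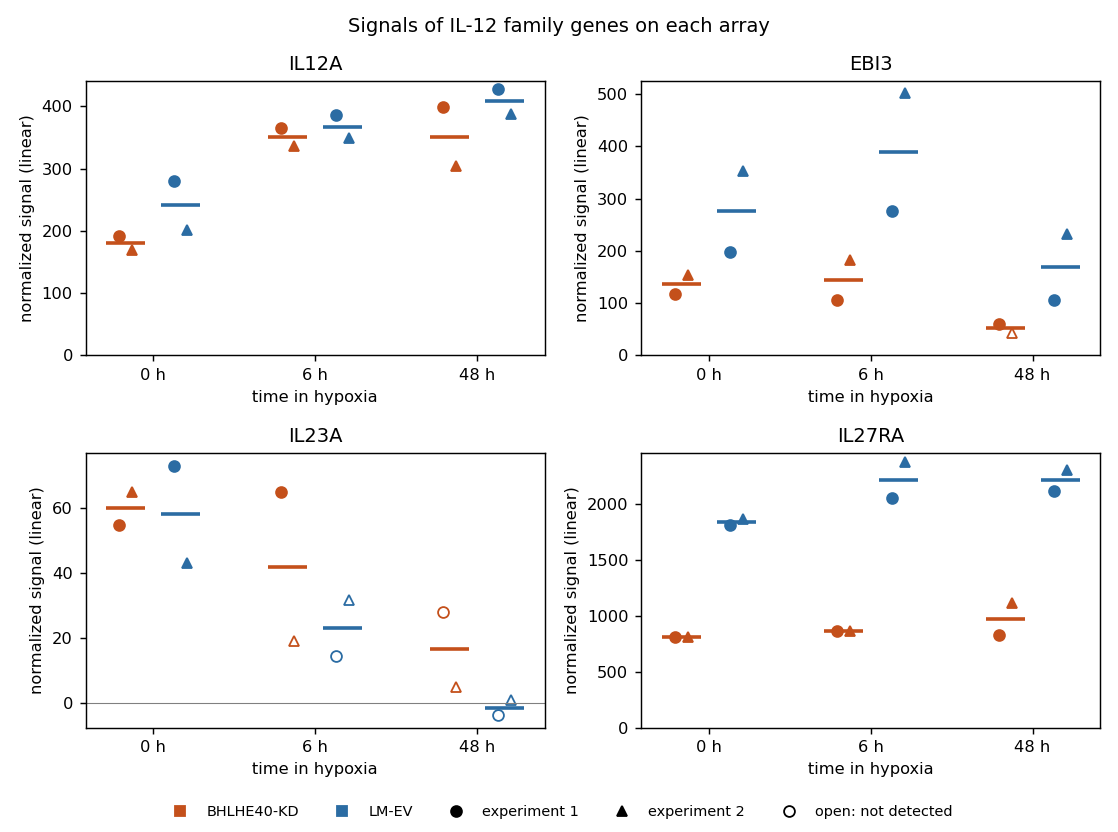
Normalized signal (linear) of the 4 members on each array against time in hypoxia, with BHLHE40-KD left of LM-EV; circles are experiment 1, triangles experiment 2, bars the group means, and open symbols arrays on which the probe was not detected. All 6 BHLHE40-KD arrays lie below all 6 LM-EV arrays for IL27RA, and the 8 hypoxia arrays lie above the 4 arrays at 0 h for IL12A.

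The targeted transcript itself was lower in BHLHE40-KD cells in each of the 6 pairs of arrays, though the groups overlapped over time. BHLHE40 ran from 1444 to 4324 (median 3304) on the BHLHE40-KD arrays and from 2716 to 6795 (median 3824) on the LM-EV arrays. Averaged over the 3 times, the difference was -0.60 log2 (SE 0.17, adjusted p = 0.0333), and no single time passed: -0.83 at 0 h, -0.49 after 6 h and -0.46 after 48 h, where adjusted p was 0.116, 0.324 and 0.365. The averaged call held in 4 of the 12 fits that left out an array (adjusted p up to 0.0909), and it was lost without the filter on dim probes. The lines also differed widely: 34.4% of the probes tested passed in the averaged comparison, 17.3% being lower and 17.2% higher in BHLHE40-KD cells.

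IL27RA, the receptor chain for IL-27, was the member that separated the lines most cleanly. At 0 h its signals were 809 and 806 in BHLHE40-KD cells (experiments 1 and 2), against 1812 and 1864 in LM-EV cells. After 6 h they were 865 and 863 in BHLHE40-KD cells, against 2056 and 2378 in LM-EV cells, and after 48 h they were 832 and 1118 in BHLHE40-KD cells, against 2121 and 2307 in LM-EV cells. No BHLHE40-KD array reached the lowest LM-EV array, a separation seen for 6.98% of probes. In bulk RNA fewer expressing cells and less RNA per cell cannot be told apart. Relative to LM-EV cells, IL27RA in untreated BHLHE40-KD cells was 2.27-fold lower (log2 -1.19, SE 0.15, adjusted p = 0.00424), in a comparison where 6.62% of probes were called lower. It was 2.56-fold lower after 6 h (log2 -1.36, adjusted p = 0.00231, with 7.21% of probes called lower) and 2.29-fold lower after 48 h (log2 -1.20, adjusted p = 0.00401, with 5.97%). Averaged over the times the difference was -1.25 (SE 0.08, adjusted p = 8.6e-05) in a comparison where 17.3% of probes were called lower. Leaving out each array in turn kept all 4 of these calls.

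No change of IL27RA with hypoxia passed the test in either line. The change was 0.10 at 6 h and 0.26 at 48 h in BHLHE40-KD cells (adjusted p = 0.792 and 0.374), against 0.27 at 6 h and 0.27 at 48 h in LM-EV cells (adjusted p = 0.442 and 0.39). The order of the group means was 808 ± 2 (SD, n = 2), 864 ± 1 and 975 ± 203 for BHLHE40-KD at 0 h, 6 h and 48 h, followed by LM-EV at 0 h (1838 ± 37), 48 h (2214 ± 132) and 6 h (2217 ± 228). BHLHE40-KD at 6 h and 48 h overlapped, as did LM-EV at 48 h and 6 h. The other neighbours in this order did not overlap, and of these steps the one between the lines was the widest. The interaction of line and time, -0.17 at 6 h (95% interval -0.65 to 0.31) and -0.01 at 48 h (-0.49 to 0.47), passed at neither time, when 0.0225% of probes did at each. For none of the 4 members did the limma interaction reach even an unadjusted p under 0.05 at 6 h or 48 h.

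EBI3, the beta chain shared by IL-27 and IL-35, was lower in BHLHE40-KD cells in all 6 pairs of arrays, with more spread between the experiments. The same held for 17.4% of probes. At 0 h its signals were 118 and 153 in BHLHE40-KD cells, against 198 and 353 in LM-EV cells. After 6 h they were 106 and 182 in BHLHE40-KD cells, against 277 and 502 in LM-EV cells. After 48 h they were 61.1 and 42.4 in BHLHE40-KD cells, the second of which was not detected, against 106 and 233 in LM-EV cells. At each time both BHLHE40-KD arrays lay below both LM-EV arrays, and the lines overlapped only across times. The experiment 2 arrays of LM-EV cells were the brighter at each time. In untreated cells the difference of -0.97 (SE 0.37) did not pass, with an adjusted p of 0.131. After 6 h EBI3 was 2.69-fold lower in BHLHE40-KD cells (log2 -1.43, SE 0.37, adjusted p = 0.0446), and after 48 h it was 3.09-fold lower (log2 -1.63, SE 0.37, adjusted p = 0.0339). Of all probes 7.21% were called lower at 6 h, 5.97% at 48 h and 17.3% in the average over the times. At 48 h the 2 experiments gave -0.80 and -2.46, the second against an array on which EBI3 was not detected, so that this size, and with it the 3.09-fold, is not exact. With all values under 64 set to 64 the 48 h difference was -1.30 (adjusted p = 0.0255). The average over the times, -1.34 (SE 0.21, adjusted p = 0.00294), held without any one array, with adjusted p of 0.000612 to 0.0124. The calls at 6 h and 48 h did not, and were lost in 10 and in 11 of the 12 fits that left out an array, with adjusted p up to 0.204 at 6 h and 0.177 at 48 h. The call at 6 h was kept without either BHLHE40-KD array at 48 h, and the call at 48 h without that of experiment 1.

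**Figure D2:**
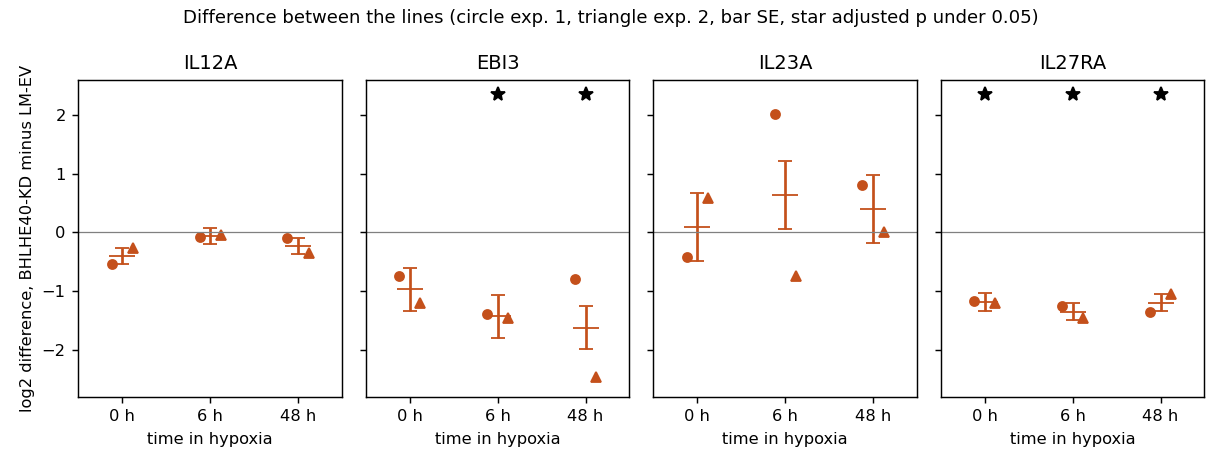
Difference in log2 normalized signal, BHLHE40-KD minus LM-EV, at each time for each member; circles are experiment 1, triangles experiment 2, and the bar is the limma estimate with its SE. Stars mark adjusted p under 0.05: IL27RA lies between -1.36 and -1.19 and EBI3 between -1.63 and -0.97, while IL12A lies between -0.40 and -0.06 and the experiments of IL23A point in opposite directions at 0 h and 6 h.

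With time in hypoxia, EBI3 was dimmest at 48 h. In both lines and both experiments the 48 h array lay below the 0 h and the 6 h array, a pattern held by 6.25% of probes. For 6 h against 0 h the change was 0.04 in BHLHE40-KD cells (adjusted p = 0.978) and 0.50 in LM-EV cells (adjusted p = 0.577). For 48 h against 0 h it was -1.41 in BHLHE40-KD cells (adjusted p = 0.0938) and -0.75 in LM-EV cells (adjusted p = 0.337), and neither passed. For 48 h against 6 h it was -1.45 in BHLHE40-KD cells (adjusted p = 0.115), where 0.923% of probes passed, and -1.25 in LM-EV cells (adjusted p = 0.241), where 0.0045% did. A comparison averaged over the 2 lines, added after the values had been seen, gave -1.08 for 48 h against 0 h (SE 0.26, adjusted p = 0.0439, with 4.97% of probes called lower) and -1.35 for 48 h against 6 h (SE 0.26, adjusted p = 0.0373, with 2.04% called lower). Each of these 2 averaged calls held in 1 of the 12 fits that left out an array (adjusted p up to 0.14 and 0.134), the one without the BHLHE40-KD array at 48 h of experiment 1. Both were also lost without the slide as a block (adjusted p = 0.11 and 0.0905) and without the filter on dim probes (adjusted p = 0.139 and 0.112). The interaction was -0.45 at 6 h (-1.67 to 0.76) and -0.65 at 48 h (-1.87 to 0.56), intervals that allow both no difference between the lines in their response and a large one.

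IL12A, the alpha chain of IL-12 and IL-35, was brighter under hypoxia in both lines. In BHLHE40-KD cells its signals were 192 and 169 at 0 h, 366 and 337 at 6 h, and 399 and 304 at 48 h. In LM-EV cells they were 280 and 202 at 0 h, 386 and 349 at 6 h, and 428 and 389 at 48 h. All 8 hypoxia arrays lay above all 4 arrays at 0 h, which held for 1.16% of probes. In BHLHE40-KD cells IL12A rose 1.95-fold at 6 h (log2 0.96, SE 0.14, adjusted p = 0.0254) and 1.93-fold at 48 h (log2 0.95, SE 0.14, adjusted p = 0.0299), in comparisons where 0.941% and 1.13% of probes were called higher. In LM-EV cells neither change passed, 0.63 after 6 h (unadjusted p = 0.00264, adjusted p = 0.12) and 0.78 after 48 h (unadjusted p = 0.000754, adjusted p = 0.0692), in comparisons where 0.0675% and 0.167% of probes were called higher. The BHLHE40-KD calls were lost in 4 of 12 fits without an array at 6 h and in 10 of 12 at 48 h (adjusted p up to 0.125 and 0.131). At 6 h the 4 arrays were those of BHLHE40-KD at 0 h and 6 h, and at 48 h the call was kept without either BHLHE40-KD array at 6 h. Both were also lost without the slide as a block (adjusted p = 0.0764 and 0.0721).

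A difference between the lines in this rise was not resolved. The interaction, BHLHE40-KD change minus LM-EV change, was 0.34 at 6 h (95% interval -0.13 to 0.80, adjusted p = 0.896) and 0.17 at 48 h (-0.29 to 0.64, adjusted p = 0.93). Averaged over the lines, again chosen after the values had been seen, IL12A rose by 0.79 at 6 h (SE 0.10, adjusted p = 0.00929, with 2.93% of probes called higher) and by 0.86 at 48 h (SE 0.10, adjusted p = 0.00803, with 5.07% called higher), and both averaged calls held in all 12 fits that left out an array. From 6 h to 48 h the averaged change was 0.07 (-0.16 to 0.30).

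**Figure D3:**
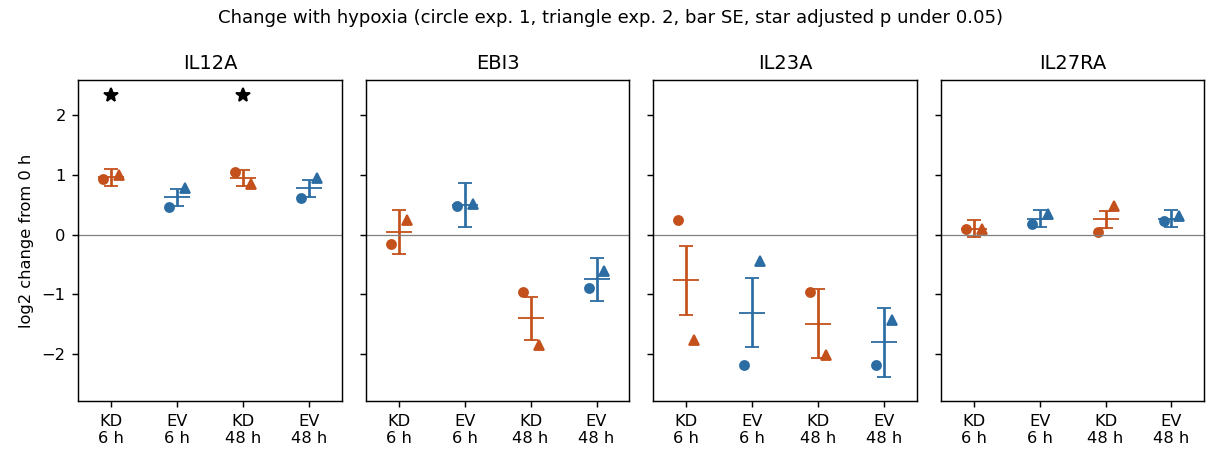
Change in log2 normalized signal at 6 h and 48 h of hypoxia against 0 h, BHLHE40-KD left of LM-EV at each time; circles are experiment 1, triangles experiment 2, and the bar is the limma estimate with its SE. Stars mark adjusted p under 0.05: IL12A lies between 0.63 and 0.96 in both lines and passed in BHLHE40-KD cells, EBI3 is below 0 at 48 h, and IL27RA lies between 0.10 and 0.27.

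Between the lines IL12A differed by less than IL27RA and EBI3. It was lower in BHLHE40-KD cells in all 6 pairs of arrays, as were 17.4% of probes, but neither the difference in untreated cells (-0.40, adjusted p = 0.108) nor those after 6 h (-0.06, adjusted p = 0.809) and 48 h (-0.23, adjusted p = 0.343) passed, nor did their average of -0.23 (95% interval -0.42 to -0.04, adjusted p = 0.0631). By group means the order was BHLHE40-KD at 0 h (181 ± 16), LM-EV at 0 h (241 ± 55), BHLHE40-KD at 6 h (351 ± 20) and at 48 h (352 ± 67). LM-EV at 6 h (367 ± 26) and LM-EV at 48 h (408 ± 28) followed. Neighbours among the 4 hypoxia groups overlapped, except that both LM-EV arrays at 48 h lay above both at 6 h. That change of 0.15 did not pass (adjusted p = 0.718).

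IL23A, the alpha chain of IL-23, sat at the edge of detection. In BHLHE40-KD cells its signals were 54.9 and 64.8 at 0 h, both detected, then 64.9 (detected) and 19.1 at 6 h, and 28.1 and 5.06 at 48 h. In LM-EV cells they were 73.0 and 43.0 at 0 h, both detected, then 14.4 and 31.8 at 6 h, and -3.63 and 0.942 at 48 h. Both lines were thus detected on both arrays at 0 h, and at 48 h IL23A was detected in neither. Where a group was not detected on any array its level is a bound, taken at the lowest signal of a detected probe. Set this way, the IL23A mean of BHLHE40-KD cells after 48 h lay at least 1.27-fold under that at 0 h. For LM-EV cells the bound was 1.16-fold after 48 h and 1.11-fold after 6 h. These bounds were not tested. The limma differences, which use the floor of 16 instead, did not pass. In BHLHE40-KD cells the 48 h difference was -1.49, with an adjusted p of 0.211. For LM-EV cells it was -1.81 after 48 h, with an adjusted p of 0.173. After 6 h the LM-EV difference was -1.31, with an adjusted p of 0.344. The difference between the lines was 0.09 at 0 h (adjusted p = 0.942), and at 6 h the experiments gave 2.02 and -0.74, so no direction can be read. The averaged fall at 48 h passed (log2 -1.65, SE 0.41, adjusted p = 0.048, with 4.97% of probes called lower), but it held in 4 of the 12 fits without an array. With a floor of 64 in place of 16 the fall was -0.05 (adjusted p = 0.53). The call was also lost without the block and without the filter (adjusted p = 0.0553 and 0.159). IL23A passed that filter only through the groups at 0 h, where its group means were highest. The filter therefore favours a fall from 0 h, and the averaged p-value is no support for one.

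The study's own rule asks for at least 1.5-fold in both experiments, with a slide taken here as an experiment, and uses no test. IL27RA and EBI3 met it for a lower level in BHLHE40-KD cells at each time. So did 7.94%, 8.83% and 7.78% of probes at 0 h, 6 h and 48 h. IL12A met the rule for a rise at 6 h and 48 h in BHLHE40-KD cells (3.74% and 4.69% of probes) and at 48 h in LM-EV cells (4.17%). At 6 h in LM-EV cells its folds were 1.38 and 1.73, so the first experiment fell short. Between the lines IL12A met the rule at no time. EBI3 did not meet the rule for a rise in LM-EV cells at 6 h, with folds of 1.40 and 1.42, or at 48 h. With 2-fold as the limit, IL27RA met the rule between the lines at each time (3.09%, 3.81% and 3.22% of probes did) and EBI3 at 6 h. EBI3 met the rule for a fall from 0 h to 48 h in both lines (5.01% of probes in BHLHE40-KD cells and 4.35% in LM-EV cells), and so did IL23A, with values at or near the floor.

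The partner cytokine chains IL12B and IL27 were not detected. IL12B, the beta chain of IL-12 and IL-23, was detected on 0 of 12 arrays (signals -43.8 to -10.7), and IL27, the alpha chain of IL-27, on 0 of 12 (-52.0 to -11.9). Each rests on a single probe, so an absent transcript and a failed probe cannot be told apart. Of the cytokine chain pairs named above, only IL12A with EBI3 had both transcripts detected, EBI3 on 11 arrays. Transcripts do not show whether the proteins were made. Among the receptor chains, IL12RB1 (3 probes), IL12RB2 and IL23R (2 probes) were also detected on 0 arrays, whereas IL6ST, the signalling partner of IL27RA, was detected on all 12 by its brightest probe (5736 to 9706). Of the 7 listed receptor chains and kinases 4 were kept, and in the averaged line comparison 1 was higher and 0 lower in BHLHE40-KD cells (median -0.01, against 0.01 over all probes), in a comparison where 17.2% of all probes were called higher and 17.3% lower. The 1 was TYK2, a kinase of the IL-12 and IL-23 receptors (0.32, adjusted p = 0.0224), whose call held in 5 of the 12 fits without an array.

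Of 10 listed transducers and feedback inhibitors, 9 had an annotated probe and all 9 were kept; in the averaged comparison 3 were higher and 1 was lower in BHLHE40-KD cells (median 0.26), beside the same 17.2% and 17.3% of all probes. SOCS2, an inhibitor of cytokine receptor signalling, averaged 5571 ± 343 in BHLHE40-KD cells and 2114 ± 13 in LM-EV cells at 48 h (SD, n = 2 each, log2 1.40, adjusted p = 0.00241), and its second probe gave 1.33. SOCS1, an inhibitor of JAK kinases, averaged 320 ± 17 in BHLHE40-KD cells and 157 ± 9 in LM-EV cells at 0 h (log2 1.03, adjusted p = 0.0359), and in BHLHE40-KD cells it fell by 1.59 log2 units at 48 h (adjusted p = 0.0303). STAT4, the transducer of IL-12, was lower on average (-0.52, adjusted p = 0.015), and PIAS1, an inhibitor of STAT proteins, was higher (0.40, adjusted p = 0.0106). The averaged calls of these 4 genes held without any one array, as did the SOCS2 call at 48 h, whereas the SOCS1 calls held in 4 of 12 fits between the lines at 0 h (adjusted p up to 0.166) and in 2 of 12 for the fall at 48 h (adjusted p up to 0.158).

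**Figure D4:**
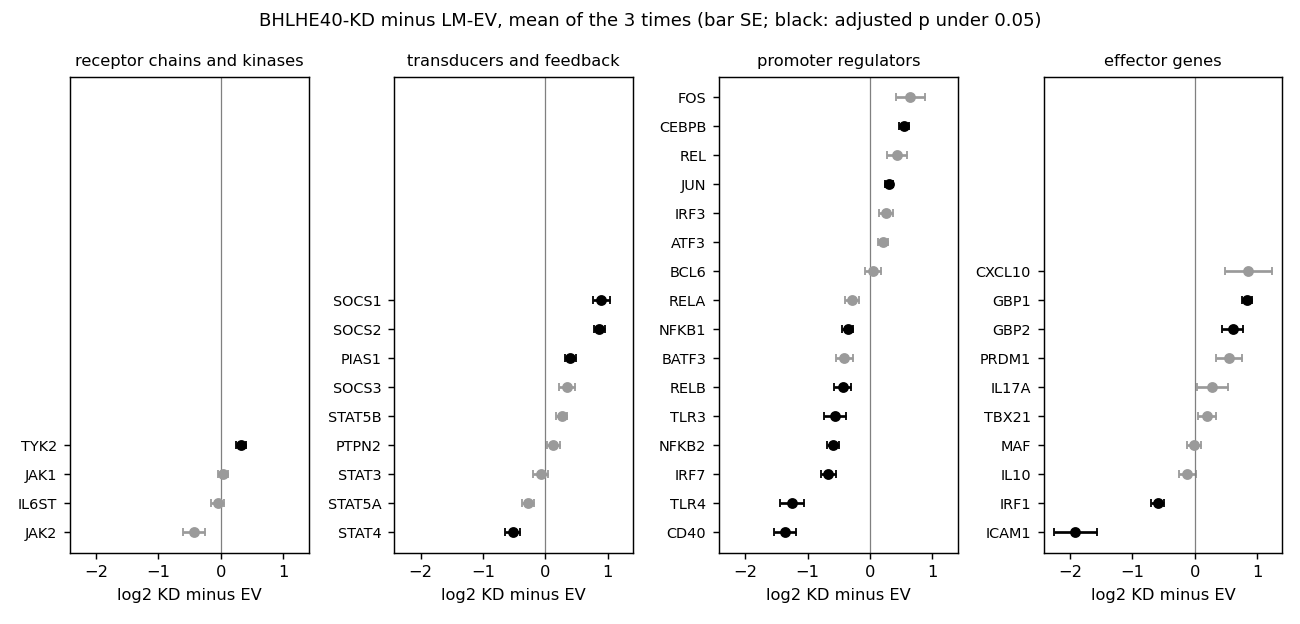
Log2 difference, BHLHE40-KD minus LM-EV averaged over the 3 times, with SE, for the kept genes of 4 lists around the members; black points have adjusted p under 0.05 and grey points do not. The values of TLR3, TLR4 and ICAM1, not detected on some BHLHE40-KD arrays, are not exact. ICAM1 passed the detection filter only through LM-EV groups, so its p-value is no support for a lower level. Among the promoter regulators 7 of 16 genes were lower and 2 higher, with CD40 (-1.37) and TLR4 (-1.24) the lowest, whereas in the transducer list SOCS1 (0.90) and SOCS2 (0.87) were the highest.

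Genes known to act upstream of these cytokine promoters included CD40, TLR4 and NFKB2, which were lower in BHLHE40-KD cells on average. Of 20 listed regulators 16 were kept, and in the averaged comparison 7 were lower and 2 higher (median -0.32), where 17.3% and 17.2% of all probes passed in those directions. CD40, a receptor whose engagement induces IL-12 family genes in antigen-presenting cells, averaged 255 ± 100 in BHLHE40-KD cells and 779 ± 72 in LM-EV cells at 6 h (log2 -1.67, adjusted p = 0.016), with its second probe at -1.15. NFKB2, a subunit of the noncanonical NF-kappaB pathway, was lower at 6 h and 48 h (-0.66 at both, adjusted p = 0.0417 and 0.0454), and NFKB1 and RELB were lower on average (-0.36 and -0.44, adjusted p = 0.0191 and 0.0443). TLR4, the endotoxin receptor, was lower at 48 h (-1.94, adjusted p = 0.0146), but it was detected on 1 of 2 BHLHE40-KD arrays there and on 3 of 6 in all, so the size is not exact. After 6 h, where it was detected on neither BHLHE40-KD array, it was at least 1.79-fold lower. IRF7 was also lower on average (-0.67, adjusted p = 0.0055), while CEBPB (0.55, adjusted p = 0.00171) and JUN (0.30, adjusted p = 0.012), a subunit of AP-1, were higher. TLR3 passed as lower (adjusted p = 0.0486), but it was detected on 2 of 6 BHLHE40-KD arrays and 3 of 6 LM-EV arrays, and the call was lost in 5 of 7 other settings, so no size is given. With hypoxia 1 regulator passed at 6 h in BHLHE40-KD cells: ATF3, a stress-induced factor, rose by 1.36 (adjusted p = 0.0122, where 0.941% of probes were called higher). The averaged calls of CD40, TLR4, NFKB2, IRF7, CEBPB and JUN held without any one array, whereas those of NFKB1, RELB and TLR3 held in 6, 3 and 2 of the 12 fits. Of the calls at single times, those of NFKB2 held in 2 of 12 fits each (adjusted p up to 0.219 at 6 h and 0.193 at 48 h) and were lost without the block and without the filter, those of CD40 and TLR4 held in 10 of 12 each, and the rise of ATF3 held in 9 of 12 and was lost without the block.

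Of 16 listed genes known to respond to this family or to interferon, 15 had a probe and 10 were kept: 2 were higher and 2 lower on average in BHLHE40-KD cells (median 0.24), shares near the 17.2% and 17.3% of all probes. GBP1, an interferon-induced GTPase, was higher at each time (0.98, 0.85 and 0.68 at 0 h, 6 h and 48 h, adjusted p = 0.00897, 0.0132 and 0.0305), and GBP2 on average (0.61, adjusted p = 0.0253). ICAM1, an adhesion molecule, was lower on average (adjusted p = 0.00478) and was detected on 2 of 6 BHLHE40-KD arrays and all 6 LM-EV arrays. It passed the detection filter only through LM-EV groups, where it was brighter, so this p-value is no support for a lower level. At 0 h, with detection on neither BHLHE40-KD array, ICAM1 was at least 2.354-fold lower, a bound that was not tested. IRF1, which is induced by interferon, was lower on average (-0.59, adjusted p = 0.00488), and in BHLHE40-KD cells it fell by 1.09 at 6 h, where 1.52% of probes were called lower, and by 1.34 at 48 h (adjusted p = 0.0337 and 0.0254). The averaged calls held without any one array except that of GBP2, which held in 6 of the 12 fits. The GBP1 calls at 0 h, 6 h and 48 h held in 10, 9 and 6 of the 12 fits, and the IRF1 falls at 6 h and 48 h in 2 and 6 (adjusted p up to 0.151 and 0.143). IFNG, the main product of IL-12 stimulated cells, was detected on 0 arrays, as were IL17F, IL21 and CXCL9. In contrast, TBX21, PRDM1 and MAF were detected on all 12 by their brightest probe, IL17A on 7 and CXCL10 on 6. IL10 was detected on all 12 by its brighter probe and on 0 by the other. None of these detected genes was called in the averaged comparison.

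Of 11 listed genes for folding and secretion, 8 were kept. In BHLHE40-KD cells 4 were higher on average (CALR 0.27, HSP90B1 0.29, PDIA4 0.39 and PDIA6 0.50; adjusted p = 0.0392, 0.0404, 0.0114 and 0.0433) and 1 was lower, beside 17.2% and 17.3% of all probes. That 1 was CANX, the chaperone calnexin, lower at each time (-1.11, -1.28 and -1.15; adjusted p = 0.0263, 0.0161 and 0.025), with its second probe between -1.35 and -1.12. The averaged calls of CANX and PDIA4 held without any one array, and those of CALR, HSP90B1 and PDIA6 in 3, 1 and 3 of the 12 fits. The CANX calls at 0 h, 6 h and 48 h held in 9, 9 and 8 of the 12 fits.

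Markers of leukocytes, the usual source of these cytokines, were mixed. Of 22 listed markers 21 had a probe, 6 were detected on no array by any probe, and 8 were kept. The summed signal of the brightest probes ran from 17640 to 26580 on the BHLHE40-KD arrays and from 13210 to 22140 on the LM-EV arrays, nearly all of it CD68, a lysosomal protein; without CD68 the sum over 20 markers was 1372 to 1980 on the BHLHE40-KD arrays and 1801 to 2343 on the LM-EV arrays. The pan-leukocyte marker PTPRC was detected by 1 of its 4 probes on a single array, and CD3E and NKG7 on none. By their brightest probe, CD2, FCGR3A and HLA-DRA were detected on all 12 arrays and CD79A on 10, and none of these was called in the averaged line comparison. On average 2 of the 8 were lower in BHLHE40-KD cells, CD14 (-2.28, adjusted p = 8.55e-05) and CD8A (-0.66, adjusted p = 0.0277), and 2 were higher, CSF1R (1.62, adjusted p = 0.000449) and CD68 (0.45, adjusted p = 0.0103), beside 17.3% of all probes called lower and 17.2% higher. The CD8A call held in 6 of the 12 fits without an array and was lost without the block and without the filter. Those of CD14, CSF1R and CD68 held in all 12. Of 8 markers of the line 6 were kept, with 2 lower and 2 higher on average. VIM lay at 58220 to 71330. CD44 was lower in BHLHE40-KD cells on average (log2 -0.93, adjusted p = 0.000303). SPARC was detected on no BHLHE40-KD array and on all 6 LM-EV arrays. It was at least 8.63-fold lower in BHLHE40-KD cells at 0 h, 9.10-fold at 6 h and 11.4-fold at 48 h. These bounds were not tested. The limma differences, which use floored signals instead, had adjusted p of 2.96e-05, 2.29e-05 and 1.78e-05 at 0 h, 6 h and 48 h. EGFR (0.60, adjusted p = 0.00294) and KRT8 (0.40, adjusted p = 0.0184) were higher on average, though a second EGFR probe gave -0.17. The averaged KRT8 call held in 7 of the 12 fits, and those of CD44 and EGFR held in all 12. Among 5 luminal markers, which MDA-MB-231 is known to lack, 2 were kept. PGR was detected on 0 arrays, ESR1 on 1 and CDH1 on 2. The luminal factor FOXA1 was detected on all 12 and was 1.32 log2 units higher on average in BHLHE40-KD cells (adjusted p = 0.000597). GATA3, the other kept luminal marker, was detected on 11 arrays. It was not called in the averaged comparison, and its difference had the opposite sign. Their part in the member results was not tested.

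For each member the 5 genes with the most similar pattern were named by Pearson r over the 12 arrays after removal of the slide means, among 5685 probes whose group means spanned at least 1 log2 unit. These are descriptions, since the 12 arrays share lines, slides and treatments. IL27RA was followed most closely by CMTM7 (r = 0.9985), ENKD1 (0.9956), CDC42EP5 (0.99), MAP1LC3A (0.99) and POLR1D (0.99). EBI3 was followed by SH3BP1 (0.98), ST8SIA4, a sialyltransferase (0.97), THBS1, which encodes thrombospondin (0.95), NDFIP2 (0.95) and FIRRE (0.95). IL12A was followed by DUSP1, a phosphatase induced by stress (0.97), LEPR, the leptin receptor (0.97), PPP1R13L (0.96), AKAP12 (0.96) and CSNK1E (0.94). For the dim IL23A the values were weaker: SYNRG (0.93), SDC2 (0.90), PAIP1 (0.87), WDR5B (0.87) and CLIP1 (0.86). Among the members, IL12A and EBI3, the chains of IL-35, had an r of -0.03, EBI3 and IL27RA 0.61, and IL12A and IL23A -0.74. With BHLHE40 the r was 0.90 for IL12A, 0.61 for IL27RA, 0.30 for EBI3 and -0.59 for IL23A. Ranked by Spearman in place of Pearson, 2 of the 5 genes stayed in the list for each member.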

How the data were processed

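RNA of 12 cultures was hybridized to Illumina HT-12 expression arrays (2 lines, 3 times, 2 arrays per group). The main input was the deposited table of normalized intensities, on a linear scale, which the authors made in GenomeStudio (no version is given in the sources used here) by background subtraction and quantile normalization. The deposited table of bead signals (average intensity) comes with detection p-values from GenomeStudio, per the file headers. Quantile normalization gives all arrays the same distribution, so only relative levels remain. The bead signals of 5 arrays of experiment 2 did not follow their normalized partners (rank correlation 0.816 to 0.904, against 1.00 for the others), so bead signals served as a check of experiment 1 alone.

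Normalized values under 16 were set to 16 (2.37% of those in kept probes) and log2 was taken. Of 47302 probes, the 22207 with a detection p-value under 0.05 on the whole of at least 1 group (2 arrays) were kept, with 20298 to 21830 detected per array. In the platform annotation 30105 probes carry 1 gene symbol, 8 carry more than 1 and 17189 carry no symbol. Each probe was tested with limma 3.58.1 in R 4.3.3 (6 groups, slide as block, 5 residual and 2.22 prior degrees of freedom) and adjusted within each contrast at 0.05. Lists are described by the kept probe of highest mean for each gene. The script was tested on simulated data with known changes. Arrays of 1 slide deviated together only in part: over 15 pairs of groups the correlation of deviations was -0.01 to 0.26 (median 0.14), and 12 were over 0.1. The 2 arrays per group limit the precision; the median SE was 0.21 log2 units between the lines at 1 time. A bound takes, on each array of the group without detection, the higher of the lowest detected signal and the probe's own signal. No test was applied to the bounds. The members, lists and tests were chosen with earlier results of these data known, and the comparisons averaged over the lines after the values had been seen. The named genes were the members, BHLHE40, listed genes that passed, detection of listed genes and the 5 most similar genes of each member. Promoter windows and gene starts are RefSeq (GRCh38.p14); all 4 members matched by symbol. Alternatives were no block, other floors, filters and variance priors, 1 probe per gene, median centring and leaving out each array.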

Additional observations from a re-analysis of the deposited data

How the results depend on the processing

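IL27RA kept its 4 line calls under all alternatives, and EBI3 its averaged line call. Without the replicate block, EBI3 lost its line calls at 6 h (-1.43, adjusted p = 0.111) and 48 h (-1.63, adjusted p = 0.0835), and IL12A its rises in BHLHE40-KD cells (0.96 and 0.95, adjusted p = 0.0764 and 0.0721), which left 1, 1, 0 and 0 members called. Without the filter on dim probes the 2 EBI3 calls were lost as well (-1.43 and -1.63, adjusted p = 0.148 and 0.116; 1 member called at each time), where more probes were tested. With 100 added in place of the floor EBI3 passed between the lines at 0 h (-0.64, adjusted p = 0.0363; 2 members called). The IL12A line average passed with a floor of 64, with detection p under 0.01 and with 1 probe per gene (-0.23 in each, adjusted p = 0.0288, 0.0484 and 0.0452). IL12A at 48 h in LM-EV cells passed in those 3 settings and with an intensity trend (0.78 in each) and with 100 added (0.58), with adjusted p of 0.0337 to 0.0459 and 1 member called each time. With the intensity trend EBI3 passed in BHLHE40-KD cells at 48 h against 0 h (-1.41, adjusted p = 0.022; 2 members called) and against 6 h (-1.45, adjusted p = 0.0283; 1 member called). Averaged over the lines, the IL12A rises (0.79 and 0.86) held in all 8 other settings, at 0.57 or more and 0.63 or more. The averaged EBI3 falls at 48 h (-1.08 against 0 h and -1.35 against 6 h) were lost without the replicate block (adjusted p = 0.11 and 0.0905) and without the filter (adjusted p = 0.139 and 0.112), and were -0.56 and -0.77 with 100 added, where both passed. The averaged IL23A fall (-1.65) was lost in 3 of 7 other settings: without the replicate block (adjusted p = 0.0553), without the filter (adjusted p = 0.159) and with a floor of 64 (-0.05, adjusted p = 0.53). IL23A reversed with a floor of 64, which lies above most of its signals, between the lines at 0 h (-0.086) and on average (-0.026) and at 6 h in BHLHE40-KD cells (0.0004). For other changes the cause was not tested.

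Leaving out 1 array gave these ranges where a call or sign changed. Between the lines IL12A ran from -0.14 to 0.010 at 6 h, EBI3 from -1.13 to -0.82, -1.59 to -1.26 and -2.29 to -0.97 at 0 h, 6 h and 48 h, and IL23A from -0.26 to 0.44 and -0.21 to 1.49 at 0 h and 6 h. In BHLHE40-KD cells IL12A ran from 0.89 to 1.04 at 6 h and from 0.86 to 1.04 at 48 h, EBI3 from -0.084 to 0.17 and from -2.07 to -0.74, and IL23A from -1.61 to 0.086 at 6 h. The interactions ran from -1.32 to 0.0073 (EBI3, 48 h), -0.30 to 1.40 and -0.039 to 0.67 (IL23A, 6 h and 48 h) and -0.19 to 0.17 (IL27RA, 48 h). Members called ran from 1 to 2 between the lines and from 0 to 1 in BHLHE40-KD cells. Of 78 called results of listed genes and BHLHE40, 28 held in all settings and 0 reversed. Within experiment 1, 41 of 56 folds from the bead signals lay within the spread of the experiments; between the lines at 6 h, neqc and median centring of bead signals gave -1.24 and -1.17 for IL27RA (normalized -1.25) and -1.32 and -0.57 for EBI3 (normalized -1.39). With median centring, 6 h against 0 h in BHLHE40-KD cells turned sign for EBI3 (0.21, normalized -0.16) and for IL27RA (-0.0047, normalized 0.097). Signals near 42.2 to 51.8 are at the limit of detection, which bounds IL23A and EBI3 in BHLHE40-KD cells at 48 h.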
